A study of Bos taurus with 20 samples.

Results

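The urea cycle was followed in cow liver through 8 genes, the enzymes CPS1, OTC, ASS1, ASL and ARG1, the activator-making enzyme NAGS and the mitochondrial carriers SLC25A15 and SLC25A13. They were chosen by gene symbol, each through its brightest probe set, and are 8 of the 20011 genes that could be named on the array. Liver RNA of 10 Holstein-Friesian dairy cows was hybridised to Affymetrix bovine gene arrays, 1 array for each cow after calving (postpartum) and 1 before it (antepartum), 20 arrays in all. Cows A to E had received a dry cow ration with 0.16% phosphorus in dry matter (LP) and cows F to J a ration with 0.35% (AP) during the last 4 weeks before calving, which gave 4 groups of 5 arrays: LP postpartum, LP antepartum, AP postpartum and AP antepartum. From calving on every cow received the same lactation ration with adequate phosphorus, so that LP and AP name the earlier diet in the postpartum groups. The cows belonged to a feeding study of 30 multiparous animals. The sources used here do not say how these 10 were picked or on which days liver was taken. Feed was held to 11.5 kg of dry matter in the dry period on both diets and was freely available in lactation, so calving and feed supply change together. The phosphorus source of the AP concentrate was mono-ammonium phosphate, and urea was mixed into the LP concentrate to match nitrogen, so the diets also differed in the form of part of their nitrogen.

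The urea cycle turns ammonia, which is toxic, into urea that the kidney can excrete. In the mitochondria of liver cells carbamoyl phosphate is made from ammonia and bicarbonate and joined to ornithine, and the citrulline so formed is passed to the cytosol, where aspartate brings in more nitrogen and arginine is finally split into urea and ornithine. In ruminants much ammonia reaches the liver from the rumen, and part of the urea returns to the gut, where microbes reuse its nitrogen. The start of milk production raises the demand for amino acids and for glucose made from them.

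Each of the 8 genes had exactly 1 probe set, none of them marked as cross-hybridising. Positions are those of the deposited workbook, and the sources used here do not name its genome build. NAGS was measured by probe set 12764741 (24 probes) on chromosome 19 from 44486054 to 44492714, plus strand, and CPS1 by probe set 12776100 (34 probes) on chromosome 2 from 98758036 to 98898492, plus strand. OTC lay on the X chromosome from 110318970 to 110395520, minus strand (probe set 12906957, 32 probes). The cytosolic enzymes were ASS1 on chromosome 11 from 100791339 to 100843337, plus strand (12698356, 21 probes), ASL on chromosome 25 from 28247949 to 28256721, minus strand (12816513, 23 probes), and ARG1 on chromosome 9 from 70499608 to 70516610, plus strand (12897200, 27 probes). The carrier SLC25A15 lay on chromosome 12 from 21800765 to 21831677, minus strand (12712341, 15 probes), and SLC25A13 on chromosome 4 from 13345306 to 13529584, minus strand (12855785, 29 probes). These spans are the whole loci, and the workbook does not place the probes within exons or untranslated regions.

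ALB, which encodes serum albumin, lay between 13.58 and 13.78 on the log2 scale on all 20 arrays. This high signal of a single liver gene does not show that an array held liver only. The postpartum array of LP cow C stood apart from the other 19. It carried the first principal component (24.8% of the variance, score 85.8, other arrays between -10.3 and 2.65), and all 6 measured adipocyte markers and all 7 fibroblast markers were at their highest there. The adipocyte marker FABP4 was at 11.04 on it, against 2.32 in the same cow antepartum, and the collagen gene COL1A1 at 13.25, against 7.32. The summed signal of 12 hepatocyte markers was the lowest of all arrays, 16.04 against 16.20 to 16.44 on the others (log2 of the sum). Each of the 8 urea cycle genes also had its lowest value of all 20 arrays there, and results are therefore given with and without this array. On the same scale its skeletal muscle signal (11 markers) was 10.99, the highest of all arrays, and its endothelial signal (6 markers) 11.62, against at most 10.98 on the others. The antepartum array of AP cow F was the next highest in skeletal muscle markers, at 10.77, against 8.71 to 9.09 in the rest of its group.

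After calving, OTC fell and was the only one of the 8 genes to pass the test over both diets. Its signal was 1.72-fold lower postpartum than antepartum (log2 difference -0.79, SE 0.18, n = 10 cows, adjusted p = 0.0426 by limma). ARG1, the last enzyme of the cycle, was 1.59-fold higher postpartum (0.67, SE 0.17) and NAGS 1.39-fold lower (-0.47, SE 0.14), but neither passed, with adjusted p = 0.0664 and 0.103. The other 5 genes had differences between -0.23 (SLC25A15) and 0.17 (ASL) and adjusted p of 0.586 and above. This 1 call among 8 stands beside 1.9% of all genes called (381 of 20011, 190 higher and 191 lower). The median log2 difference of the 8 genes was -0.09 and that of all genes -0.01. All genes include dim ones, and with those filtered out 2 of the 8 and 534 of 10799 genes passed. In the authors' deposited table the same log2 ratios stand with unadjusted paired p of 0.00459 for OTC, 0.0116 for NAGS and 0.0217 for ARG1, and above 0.2 for the other 5 genes.

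**Figure D1:**
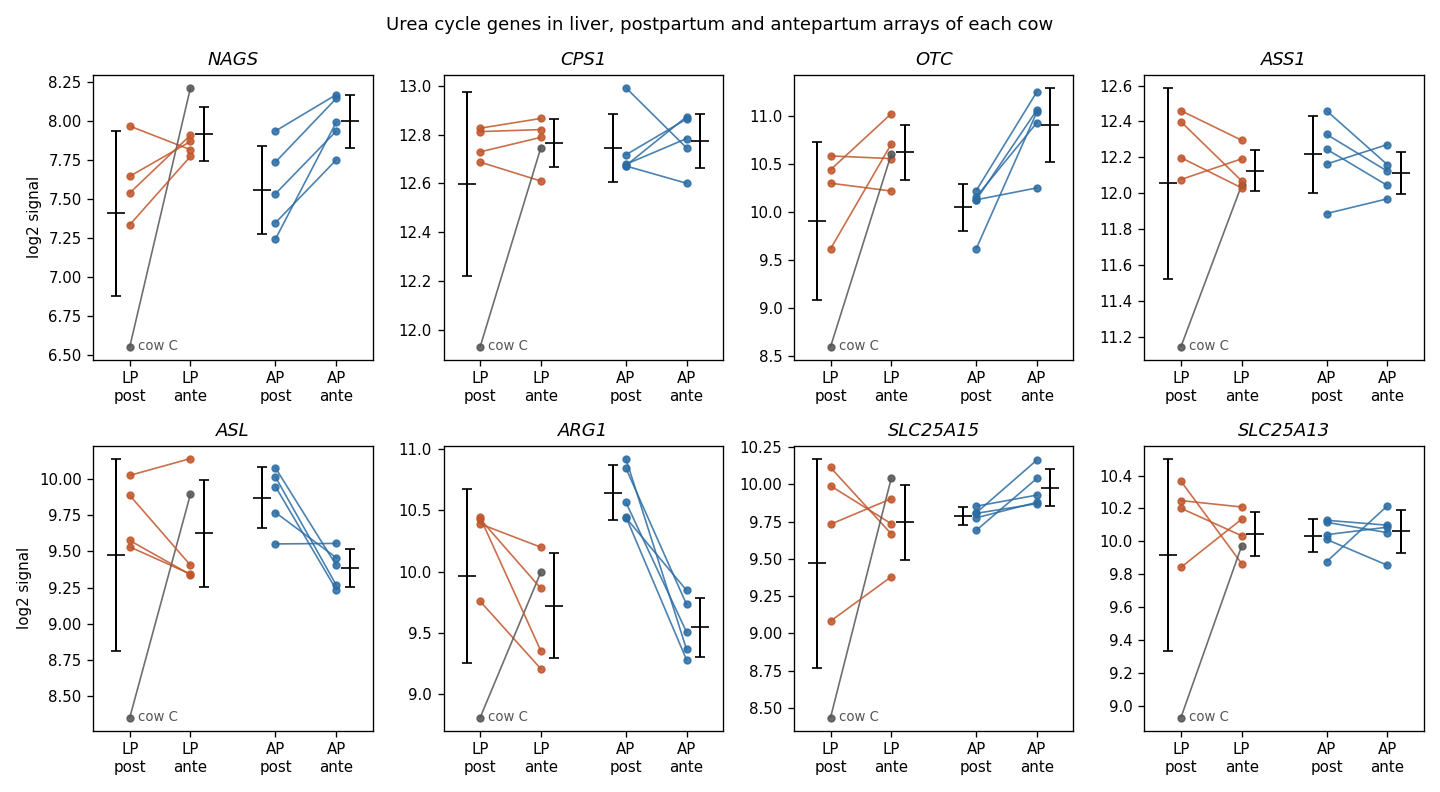
Log2 signal of each gene on every array, with the LP cows left and the AP cows right, each with postpartum (post) before antepartum (ante). Lines join the arrays of a cow, black bars show the group mean ± SD (n = 5), each panel has its own scale, and the grey line marks cow C, whose postpartum value is the lowest in every panel.

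Without the postpartum array of cow C, which removes that cow from every within-cow comparison, 3 of the 8 genes passed, beside 3.34% of all genes. ARG1 was then higher by 0.85 (SE 0.11, adjusted p = 0.00132, higher in 9 of 9 cows), OTC lower by a log2 difference of -0.62 (SE 0.14, adjusted p = 0.0265, lower in 7 of 9) and NAGS lower by -0.33 (SE 0.08, adjusted p = 0.0447, lower in 8 of 9). ASL, at 0.34 (SE 0.09), missed the threshold with adjusted p = 0.0706. With all arrays of a single other cow left out, the OTC call held for cows A, B and G (adjusted p = 0.0316, 0.0344 and 0.0372) and was lost for 6 cows. Its adjusted p was 0.0878 when cow D was left out, 0.114 for E, 0.0911 for F, 0.105 for H, 0.113 for I and 0.0951 for J, with log2 differences between -0.80 and -0.72 in these 6 fits. Of the 10 fits that each left out 1 cow, ARG1 and NAGS passed in 1, that without cow C. In the others their adjusted p by limma reached 0.163 for ARG1 and 0.229 for NAGS.

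**Figure D2:**
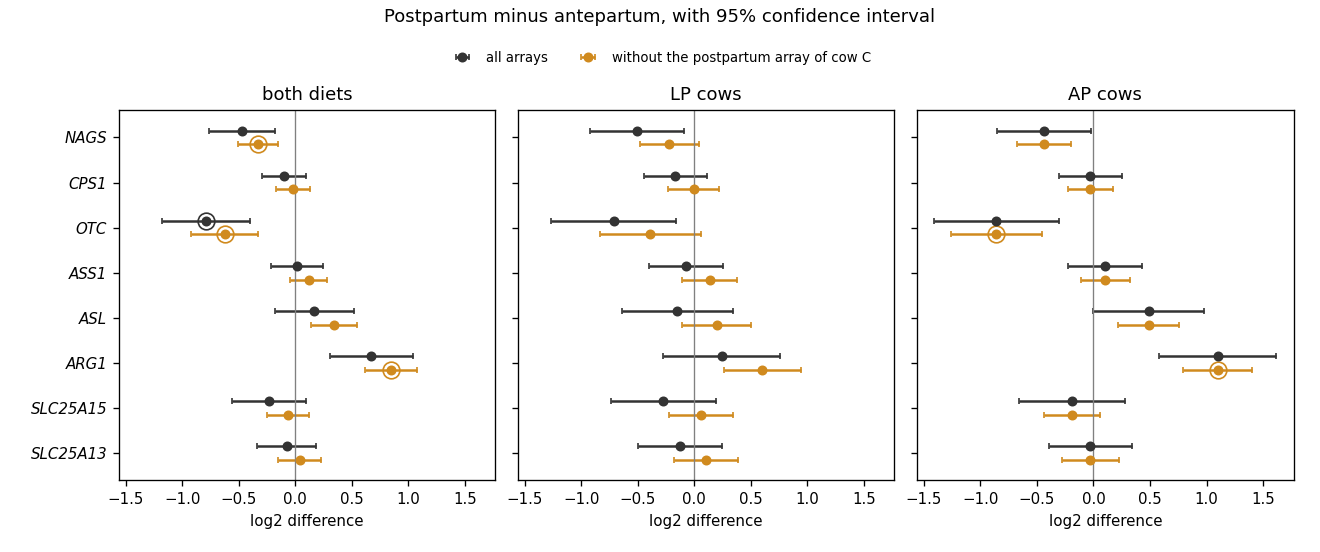
Postpartum minus antepartum log2 difference of each gene over both diets, in LP cows and in AP cows, with bars for the 95% confidence interval of the limma fit. Dark points use all arrays and light points leave out the postpartum array of cow C. Open rings mark adjusted p under 0.05, which OTC alone has with all arrays.

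NAGS makes N-acetylglutamate, the compound without which CPS1 is inactive. Its log2 signals were 7.64, 7.97, 6.55, 7.54 and 7.33 postpartum in LP cows A to E, against 7.87, 7.81, 8.21, 7.91 and 7.77 antepartum. In AP cows F to J they were 7.53, 7.35, 7.24, 7.74 and 7.93 postpartum, against 7.93, 7.75, 7.99, 8.14 and 8.17 antepartum. All cows but B were lower after calving, although the groups overlapped within each diet. By group mean the order was LP postpartum (7.41 ± 0.53, SD), AP postpartum (7.56 ± 0.28), LP antepartum (7.91 ± 0.17) and AP antepartum (8.00 ± 0.17), and the values of neighbouring groups overlapped.

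CPS1, which makes carbamoyl phosphate and carries out the entry step of the cycle, had close group means. Its group means were 12.60 ± 0.38 in LP postpartum, 12.77 ± 0.10 in LP antepartum, 12.75 ± 0.14 in AP postpartum and 12.77 ± 0.11 in AP antepartum (SD, n = 5 each). Apart from cow C, at 11.93, the arrays spanned 12.60 to 12.99. The change across calving lay between -0.20 and 0.25 in the 9 cows other than C, and the difference over both diets was -0.10 with a 95% interval of -0.29 to 0.10.

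OTC joins carbamoyl phosphate to ornithine to form citrulline. It had log2 signals of 10.30, 10.59, 8.60, 10.44 and 9.62 postpartum in LP cows A to E, against 10.22, 10.56, 10.61, 11.03 and 10.71 antepartum. In AP cows F to J the signals were 10.16, 10.13, 10.23, 9.62 and 10.13 postpartum, against 10.94, 10.26, 11.26, 11.05 and 11.07 antepartum. In LP, cows A and B were slightly higher after calving, by 0.08 and 0.03, and cows D and E changed by -0.58 and -1.09, so that the groups overlapped, while the AP groups did not. The order of the means was LP postpartum (9.91 ± 0.82), AP postpartum (10.06 ± 0.25), LP antepartum (10.63 ± 0.29) and AP antepartum (10.91 ± 0.39), with overlap between neighbours. Across calving over both diets, 2 of 12 hepatocyte markers fell and none rose, beside 191 of all 20011 genes called lower. These were TTR, which encodes transthyretin, by a log2 difference of -0.61 and CYP2C18 by -0.87 (adjusted p = 0.0136 and 0.014). At an unadjusted p under 0.05 there were 7 of the 12, beside 2739 of all genes. The median log2 difference of the 12 was -0.22, against -0.01 for all genes. The summed hepatocyte signal was 16.04 to 16.30 postpartum against 16.33 to 16.41 antepartum in LP cows, and 16.22 to 16.31 against 16.32 to 16.44 in AP cows. Its part in the OTC result was not tested, and in whole liver fewer cells of a type and less RNA per cell cannot be told apart.

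ASS1, which condenses citrulline with aspartate, had a difference of 0.02 across calving (95% interval -0.22 to 0.25, adjusted p = 0.974). Its means were 12.06 ± 0.53 in LP postpartum, 12.13 ± 0.11 in LP antepartum, 12.22 ± 0.21 in AP postpartum and 12.11 ± 0.11 in AP antepartum. It was higher postpartum in 6 of the 10 cows. Without the postpartum array of cow C the difference was 0.12 with adjusted p = 0.519.

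ASL splits argininosuccinate into arginine and fumarate. Its signals were 10.03, 9.53, 8.35, 9.89 and 9.58 postpartum in LP cows A to E, against 10.14, 9.34, 9.90, 9.40 and 9.34 antepartum. They were 10.08, 9.55, 10.01, 9.77 and 9.95 postpartum in AP cows F to J, against 9.40, 9.56, 9.27, 9.46 and 9.24 antepartum. The LP groups overlapped widely, and the AP groups overlapped only through cow G, which hardly changed. Over both diets 7 of 10 cows were higher postpartum, and the difference did not pass (0.17, SE 0.16, adjusted p = 0.746). The means were 9.47 ± 0.66 in LP postpartum, 9.62 ± 0.37 in LP antepartum, 9.87 ± 0.21 in AP postpartum and 9.38 ± 0.13 in AP antepartum, with the AP groups lowest and highest and both LP groups between them.

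ARG1 splits arginine into urea and ornithine and closes the cycle. Its signals were 10.39, 9.76, 8.81, 10.43 and 10.44 postpartum in LP cows A to E, against 10.20, 9.21, 9.99, 9.86 and 9.35 antepartum. In AP cows F to J they were 10.45, 10.44, 10.57, 10.84 and 10.92 postpartum, against 9.28, 9.85, 9.50, 9.73 and 9.36 antepartum. Every AP array postpartum exceeded every AP array antepartum, and in LP all cows but C were higher after calving. The means were 9.96 ± 0.71 in LP postpartum, 9.72 ± 0.43 in LP antepartum, 10.64 ± 0.23 in AP postpartum and 9.54 ± 0.24 in AP antepartum. AP postpartum was the highest group, although LP cow E and AP cow G both had 10.44 postpartum, and the lower 3 groups overlapped. HAL, which starts histidine breakdown and is counted among the genes of liver cells near the portal vein, passed as higher postpartum (log2 difference 1.29, adjusted p = 0.0123). In that portal marker list 2 of 6 measured genes rose, HAL and HSD17B13 (0.49, adjusted p = 0.0381), and CDH1 fell (-0.79, adjusted p = 0.00226). Of 7 markers of cells near the central vein, CYP2E1 (-0.34, adjusted p = 0.036) and LGR5 (-1.03, adjusted p = 0.0286) fell and none rose. Of 10 macrophage markers 3 fell (C1QB, C1QC and CD5L) and of 4 erythroid markers 1 (HBB), where 1.9% of all genes passed. No marker of the 7 lists not yet named in this comparison (skeletal muscle, adipocyte, fibroblast, neutrophil, T or NK cell, endothelial and cholangiocyte) passed. Without the postpartum array of cow C, C1QB missed the threshold (-0.37, adjusted p = 0.0509 by limma) and the other marker calls over both diets held, beside 3.34% of all genes. The part of these shifts in the ARG1 values was not tested.

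The carriers link the mitochondrial and cytosolic steps. SLC25A15 exchanges ornithine for citrulline, and SLC25A13 (citrin) exports aspartate to the cytosol. In LP cows SLC25A15 was higher postpartum in A and B and lower in C, D and E, with 8.44 to 10.11 postpartum against 9.38 to 10.04 antepartum. It was lower in 5 of 5 AP cows, with changes of -0.35 to -0.06, and the AP groups did not overlap (9.69 to 9.85 postpartum against 9.87 to 10.16 antepartum). Its difference over both diets was -0.23 (SE 0.15, adjusted p = 0.586), or -0.07 without the postpartum array of cow C. SLC25A13 changed by -1.04 to 0.50 in LP cows and by -0.34 to 0.16 in AP cows. Its difference was -0.08 (adjusted p = 0.864) and turned to 0.04 without that array.

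**Figure D3:**
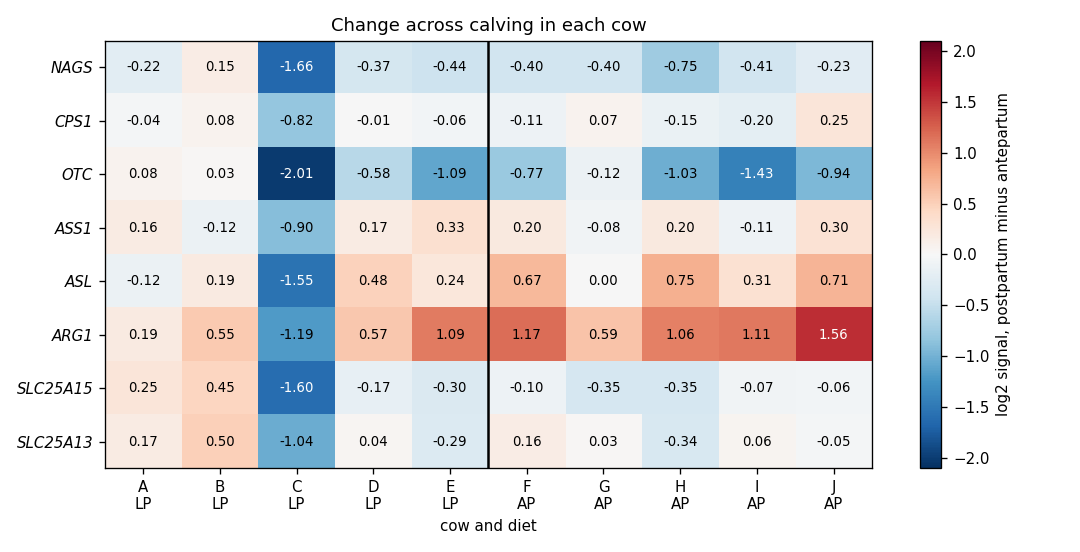
Change of each gene across calving in each cow, as log2 signal postpartum minus antepartum, with LP cows A to E left of the black line and AP cows F to J right of it. ARG1 is above 0 in every cow but C, NAGS is below 0 in every cow but B, and all 8 genes are below 0 in cow C.

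The last enzyme of the cycle and the mitochondrial OTC step differed within single animals. The change of ARG1 exceeded that of OTC in 10 of 10 cows, cow C included, by a mean of 1.46 (SD 0.89). The excess was 0.11, 0.52, 0.82, 1.15 and 2.18 in LP cows A to E, and 1.94, 0.72, 2.09, 2.54 and 2.50 in AP cows F to J. It was smallest in LP cows A and B, and the LP and AP ranges overlapped. Of the 28 pairs among the 8 genes, 7 kept their direction in all 10 cows. ARG1 exceeded ASL and NAGS as well, ASL exceeded NAGS, SLC25A13 exceeded OTC, and both SLC25A13 and SLC25A15 exceeded NAGS in every cow. These pairs were read off after the changes were known, so they are given as a description and without a test. They share genes, and pairs among all genes were not counted for comparison. A difference in change within an array shows unequal change only, and does not show which of the genes moved.

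**Figure D4:**
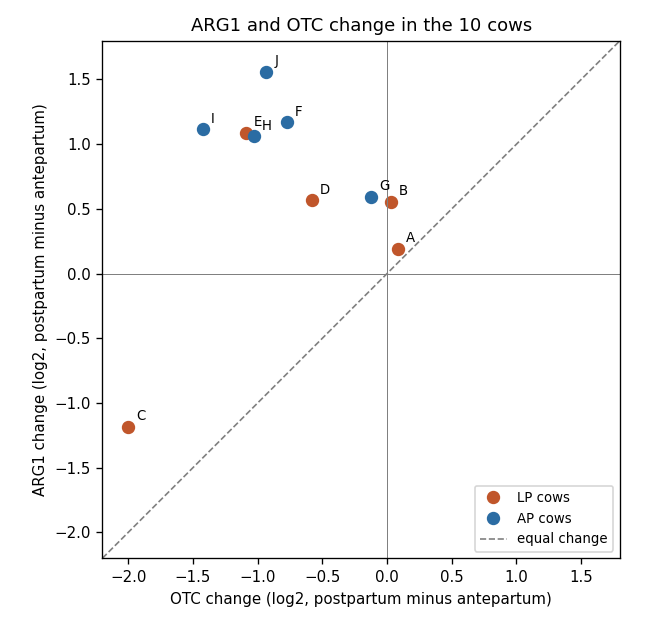
Change of ARG1 against change of OTC across calving (log2, postpartum minus antepartum), 1 point for each cow with its letter, LP and AP cows in different colours. All 10 points lie above the dashed line of equal change, also that of cow C, where both genes were lower postpartum.

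Within LP cows none of the 8 genes passed, beside 0.00999% of all genes (2 of 20011, with 1554 at an unadjusted p under 0.05). OTC differed by -0.71 (SE 0.26, adjusted p = 0.532), NAGS by -0.51 (adjusted p = 0.56) and ARG1 by 0.24 (adjusted p = 0.853). Without the postpartum array of cow C these were -0.39, -0.22 and 0.60, with adjusted p = 0.715, 0.733 and 0.25, and the differences of ASS1, ASL, SLC25A13 and SLC25A15 turned positive.

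Within AP cows no gene of the 8 passed either, beside 0.63% of all genes (126 of 20011). ARG1 came nearest, at 2.14-fold (log2 difference 1.10, SE 0.24, adjusted p = 0.0562, higher in 5 of 5 cows). OTC was lower by a log2 difference of -0.86 (SE 0.26, adjusted p = 0.17, 5 of 5 cows), NAGS by -0.44 (adjusted p = 0.422, 5 of 5) and ASL higher by 0.49 (adjusted p = 0.475, 4 of 5). At an unadjusted p under 0.05 there were 3 of the 8 genes and 2133 of all genes. The AP groups did not overlap for 3 of the 8 genes, ARG1, OTC and SLC25A15, beside 4.2% of all genes. When the spread was estimated without the postpartum array of the LP cow C, ARG1 (adjusted p = 0.00254) and OTC (adjusted p = 0.0309) passed with the same differences, beside 2.14% of all genes. Without the antepartum array of AP cow F neither passed in limma, beside 21 of all 20011 genes. ARG1 was then at 1.08 (adjusted p = 0.1997) and OTC at -0.88 (adjusted p = 0.375). Of 10 fits that each left out 1 cow, ARG1 passed in 2 and OTC in 1.

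Whether the diets differed in the change across calving was tested directly. The change in LP cows minus that in AP cows was -0.86 for ARG1 (95% interval -1.59 to -0.12, unadjusted p = 0.0255, adjusted p = 0.994) and -0.64 for ASL (-1.34 to 0.06). The other 6 genes lay between -0.17 and 0.14. None of the 8 passed, and limma called 0% of all genes, with 786 at an unadjusted p under 0.05. Without the postpartum array of cow C the ARG1 value was -0.50 (-0.96 to -0.04) and that of ASL -0.29, and 5 genes (CPS1, ASS1, NAGS, SLC25A13 and SLC25A15) turned positive.

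Before calving, while the rations differed, none of the 8 genes passed between LP and AP livers. OTC had the widest difference, 10.63 ± 0.29 in LP against 10.91 ± 0.39 in AP (-0.29, 95% interval -0.87 to 0.30). ASL was at 9.62 ± 0.37 in LP and 9.38 ± 0.13 in AP (0.24, -0.24 to 0.72), and SLC25A15 at 9.74 ± 0.25 in LP and 9.98 ± 0.12 in AP (-0.23, -0.69 to 0.23). CPS1, ASS1 and SLC25A13 differed by -0.01, 0.01 and -0.02. All 8 had an adjusted p of 0.9999, the LP and AP values of each gene overlapped, and 0.005% of all genes passed (1 of 20011). The interval of OTC still held the size of its difference across calving (-0.79).

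After calving, the 8 genes were all lower in cows that had received LP, and none passed, again beside 0.005% of all genes. ARG1 was at 9.96 ± 0.71 in LP against 10.64 ± 0.23 in AP (-0.68, 95% interval -1.21 to -0.15, unadjusted p = 0.0146, adjusted p = 0.812). ASL was at 9.47 ± 0.66 in LP against 9.87 ± 0.21 in AP (-0.40), and the other 6 differences lay between -0.32 and -0.12. This common direction rested on 1 array: without cow C's, CPS1 (0.02), ASS1 (0.07), NAGS (0.06), OTC (0.18) and SLC25A13 (0.13) were higher in LP. ARG1 remained lower in LP without it, at 10.25 ± 0.33 (n = 4) against 10.64 ± 0.23, with a difference of -0.39 (-0.79 to 0.01, adjusted p = 0.978).

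**Figure D5:**
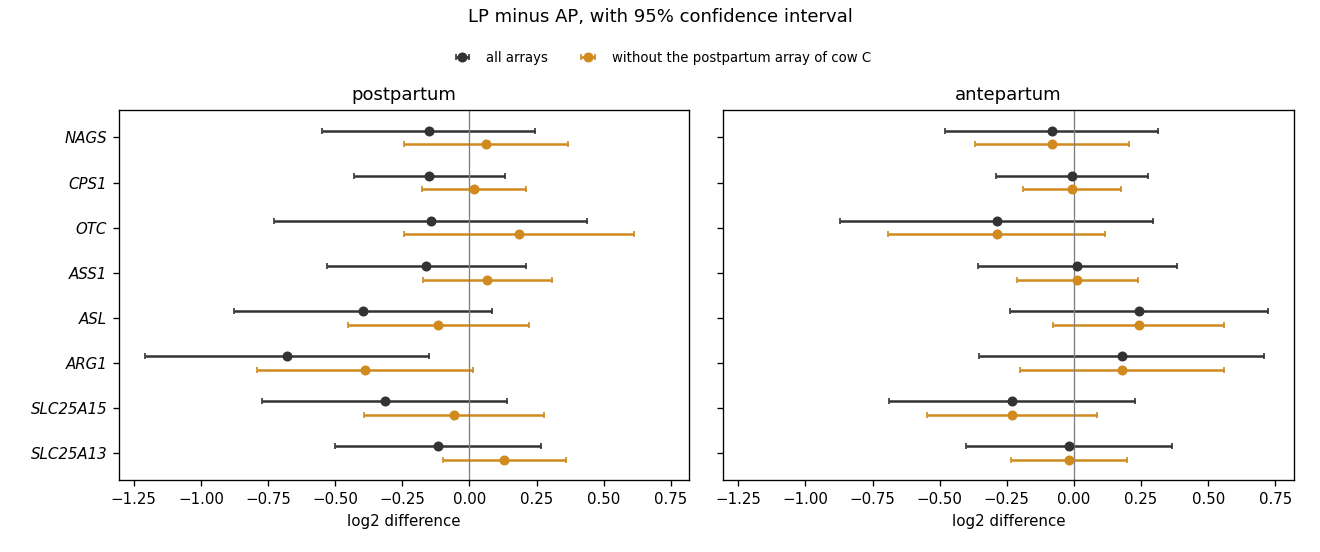
LP minus AP log2 difference of each gene, postpartum left and antepartum right, with bars for the 95% confidence interval. Dark points use all arrays and light points leave out the postpartum array of cow C, which moves every postpartum point to the right.

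Genes that feed, use or regulate the cycle were counted in 4 lists. Of 21 measured genes for ammonia and aspartate supply, GPT2, the mitochondrial alanine aminotransferase, rose postpartum over both diets (0.47, SE 0.11, adjusted p = 0.0473, higher in 9 of 10 cows) and none fell, 1 call of 21 beside 1.9% of all genes. It averaged 7.01 ± 0.53 in LP and 7.19 ± 0.21 in AP postpartum, against 6.59 ± 0.29 in LP and 6.67 ± 0.18 in AP antepartum. Of 20 genes for the use of arginine, ornithine and proline, ALDH18A1, which makes the proline and ornithine precursor from glutamate, rose (0.45, SE 0.09, adjusted p = 0.0242, 10 of 10 cows), 1 call of 20. Its means were 6.83 ± 0.16 in LP and 6.65 ± 0.17 in AP postpartum, against 6.27 ± 0.32 in LP and 6.31 ± 0.15 in AP antepartum. None of 8 genes for urea and ammonia transport passed, with the ammonia transporter RHCG lowest in p (-0.20, adjusted p = 0.403). Of 12 regulators, PPARGC1A, the coactivator of fasting gene programmes in liver, was the 1 call and rose over both diets (0.52, SE 0.10, adjusted p = 0.0236, 9 of 10 cows) and within AP cows (0.79, SE 0.14, adjusted p = 0.0291), where 0.63% of all genes passed.

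PPARGC1A had log2 signals of 8.87, 8.41, 7.53, 8.69 and 8.54 postpartum in LP cows A to E, against 8.79, 7.83, 7.87, 8.30 and 8.05 antepartum. In AP cows F to J it was at 8.94, 8.70, 8.78, 8.95 and 8.83 postpartum, against 7.98, 8.16, 8.37, 7.80 and 7.93 antepartum. The LP groups overlapped, the AP groups did not, and cow C alone was lower postpartum. Its change differed between LP and AP cows by -0.55, which did not pass (unadjusted p = 0.0175, adjusted p = 0.994). Without the postpartum array of cow C this difference was -0.41 (adjusted p = 0.9999 by limma). The median log2 differences over both diets were 0.05, -0.0033, -0.04 and -0.0070 for the 4 lists in the order above, beside -0.01 for all genes.

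Apart from PPARGC1A within AP cows, no gene of the 4 lists passed in the remaining comparisons. Lowest in p within their lists were ASNS (asparagine synthetase), ALDH18A1 and the urea transporter SLC14A1 in LP cows, with 0.51, 0.55 and 0.36 and adjusted p from 0.268 to 0.538. In AP cows they were GPT2 (0.52, adjusted p = 0.169) and SLC7A2, which carries arginine into liver cells (0.70, adjusted p = 0.124). For LP against AP, the arginine carrier SLC7A1 led antepartum (6.75 ± 0.27 in LP against 6.38 ± 0.06 in AP, unadjusted p = 0.0057, adjusted p = 1). Postpartum it was SLC7A2 (9.14 ± 0.60 in LP against 9.69 ± 0.43 in AP, -0.54, adjusted p = 0.812) and the glucagon receptor GCGR (9.50 ± 0.44 against 9.86 ± 0.07, -0.36, adjusted p = 0.812). Leaving out the postpartum array of cow C brought these differences to -0.33 and -0.19 (adjusted p = 0.978 by limma). In the other lists SDS (-0.68, or -0.84 without that array) and AQP7 (0.99, or 0.22) were lowest in p postpartum, and neither passed. Without the postpartum array of cow C, SLC7A2 (0.63, adjusted p = 0.00601) and GCGR (0.43, adjusted p = 0.00634) passed over both diets and within AP cows. Over both diets the supply list then held 3 calls of 21, GPT2, MDH2 and SLC25A22, beside 3.34% of all genes, and MDH2 and SLC25A22 were named after their values were seen.

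After the 4 group means were removed, Pearson r between the 8 genes over the 20 arrays lay between 0.34 (OTC and ARG1) and 0.88 (CPS1 and ASS1). The median over the 28 pairs was 0.71, and r was not taken over pairs of all genes for comparison. These arrays include the postpartum array of cow C, where each of the 8 genes was at its lowest. Without the 2 arrays of cow C r ranged from -0.46 (OTC and ARG1) to 0.69 (SLC25A13 and SLC25A15) with a median of 0.26. Arrays are paired within cows, so these are descriptions over 10 or 9 animals. Among all genes whose symbol does not start with LOC, ASL was most like CRCP, with r = 0.96 over 20 arrays and 0.93 over the 18 without cow C. ABCC6 stayed among the 3 genes most like ASS1 (0.94 and 0.85), VWA8 among those most like CPS1 (0.95 and 0.81), and AGA among those most like OTC (0.91 and 0.86). C2H2orf72 did so for NAGS (0.92 and 0.80). These genes were picked for the highest r among all genes compared, and the 18 arrays are part of the 20. The r to be expected for genes picked in this way was not computed, so the values are descriptions without a test. For ARG1, SLC25A13 and SLC25A15 the 3 most similar genes over all arrays (for ARG1 AMDHD1, CLPX and MBL2, r = 0.91 to 0.89) were replaced by others without cow C (GPR4, RPP40 and MT2A, r = 0.86 to 0.84).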

How the data were processed

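Liver RNA of 10 cows was measured on 20 arrays, antepartum and postpartum. The authors deposited log2 signals for 24333 probe sets. SST-RMA is named in the workbook's header, and RMA and Affymetrix Expression Console 1.4 in the submitters' processing notes. Array medians lay between 5.97 and 6.14, so these values cannot show all genes shifting together. The authors also deposited log2 ratios and unadjusted paired p-values of postpartum against antepartum, and recomputing the ratios gave the same values. A second deposited table held the log2 signals rounded (largest difference 0.005).

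Probe sets with 1 symbol (20421) gave 20011 genes. For 386 symbols with several, the one with the highest mean was used, and 3912 probe sets without a single symbol were left out. The 8 members and all lists were chosen with earlier results of these data known. Other named genes were, from each pathway list and comparison, up to 2 per direction of lowest p that passed, or else the 1 of lowest p, the 3 genes most correlated with each member, and marker genes.

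Tests were two-sided in limma 3.58.1 (R 4.3.3) over all 20 arrays, and p-values were adjusted by Benjamini-Hochberg for 20011 genes, with the threshold at 0.05. Comparisons across calving and their difference between diets had the animal as a fixed block, and LP against AP within a time did not. Animal numbers in the labels pair the arrays. Residuals of the 2 arrays of an animal correlated with a median r of 0.167 (over 0.1 in 8 of 10), against -0.04 between animals. Leaving out 1 array removes its cow from comparisons across calving. Having 5 arrays per group limits the precision. The code was tested on simulated data. Alternatives were other normalizations, filters, variance models and weights, the fit without the animal, only the groups compared, the rounded table, and leaving out arrays or cows. Marker levels, list counts and similar genes without cow C were added after seeing the data. A signal is not an absolute level, and levels were not compared between genes. Names were checked against a RefSeq table of assembly ARS-UCD2.0, where 7 of 8 members matched by accession.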

Additional observations from a re-analysis of the deposited data

Results flagged for a closer look

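In 3 of the 32 sets of 5 arrays (8 genes in 4 groups), the highest or lowest array lay farther from its neighbour than Dixon's 95% critical value allows (0.71 of the range), where chance alone gives about 1 in 20. CPS1 in cow C postpartum, at 11.93, was the lowest of LP postpartum, with a gap of 0.845 of the range. In cow J postpartum CPS1 was the highest of AP postpartum, at 12.99, with a gap of 0.857 of the range. OTC in cow I postpartum, at 9.62, was the lowest of AP postpartum, with a gap of 0.842 of the range. The other 7 genes were also at their lowest in cow C postpartum, but in those groups of LP arrays the gap did not exceed the critical value.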

How the results depend on the processing

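Without the replicate block (the animal), 300 genes passed across calving over both diets, against 381 with it, and 83 within AP cows, against 126. The OTC call held (adjusted p = 0.0482), and the block changed no call of the 8 genes, nor did the animal as a random block for LP against AP. Over both diets the count of genes moved to 881 with array weights, 668 when the postpartum array of cow C was dropped, 142 without the antepartum array of cow F and between 128 and 668 when single cows were left out. Of the 8 genes, 2 passed with dim genes filtered out, where 534 of the 10799 genes tested passed. With array weights or without the postpartum array of cow C 3 of the 8 passed. With a trended robust variance 0 passed (OTC adjusted p = 0.0501), beside 398 of all 20011 genes. Without the antepartum array of cow F 0 passed, and without single cows 0 to 3. Within AP cows the count of genes was 232 of 10799 with the dim filter. Of all 20011 it was 668 with array weights, 429 without the array of cow C, 21 without that of cow F and 467 in a fit of AP cows alone, and 18 to 429 without single cows. Of the 8 genes 1 then passed with the filter, 2 with weights, 2 without the array of cow C, 0 without that of cow F, 2 in AP cows alone and 0 to 2 without single cows. Within LP cows 5 genes passed without the array of cow C, 0 in LP cows alone and 0 to 5 without single cows. For LP against AP, 0 passed antepartum without the array of cow F and 0 in antepartum arrays alone, 0 to 1 without single cows, and postpartum 0 in postpartum arrays alone and 0 to 2 without single cows. The cause of these shifts was not tested.

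Directions turned only for differences that did not pass with all arrays. Without the postpartum array of cow C, SLC25A13 turned to 0.038 over both diets. In LP cows ASS1 turned to 0.14, ASL to 0.20, SLC25A13 to 0.10 and SLC25A15 to 0.058. The difference between the diets' changes turned to 0.020 for CPS1, 0.034 for ASS1, 0.22 for NAGS, 0.13 for SLC25A13 and 0.25 for SLC25A15. For LP against AP postpartum it turned to 0.017 for CPS1, 0.18 for OTC, 0.067 for ASS1, 0.062 for NAGS and 0.13 for SLC25A13. With array weights ASS1 (0.088) and ASL (0.11) in LP cows, NAGS (0.055) and SLC25A15 (0.035) for the diets' changes, OTC (0.25), NAGS (0.0066) and SLC25A13 (0.13) postpartum, and ASS1 antepartum (-0.031) turned. CPS1 antepartum turned to 0.0079 with quantile normalization, and ASS1 antepartum to -0.0043 without the antepartum array of cow F. Leaving out single cows, the ranges that crossed 0 were, across calving over both diets, -0.034 to 0.12 for ASS1 and -0.15 to 0.038 for SLC25A13. Within AP cows they were -0.096 to 0.016 for CPS1 and -0.073 to 0.051 for SLC25A13. Within LP cows they were -0.17 to 0.14 for ASS1, -0.31 to 0.20 for ASL, -0.28 to 0.10 for SLC25A13 and -0.45 to 0.058 for SLC25A15. For the diets' changes they were -0.20 to 0.020 for CPS1, -0.055 to 0.47 for OTC, -0.27 to 0.034 for ASS1, -0.23 to 0.22 for NAGS, -0.26 to 0.13 for SLC25A13 and -0.27 to 0.25 for SLC25A15. For LP against AP antepartum they were -0.050 to 0.032 for CPS1, -0.029 to 0.053 for ASS1 and -0.071 to 0.026 for SLC25A13. Postpartum they were -0.21 to 0.017 for CPS1, -0.31 to 0.18 for OTC, -0.26 to 0.067 for ASS1, -0.29 to 0.062 for NAGS and -0.23 to 0.13 for SLC25A13.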
